A study of Oryza sativa Japonica Group with 74 samples.

Results

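The 150 genes described here peak at ZT18 in long days and at ZT14 in short days in wild-type rice, where ZT is the time in hours after lights on. Both times lie 4 h after lights off. They were chosen by a rule from the wild-type libraries alone. A gene had to have its highest mean TPM (a length-corrected share of a library's transcripts) at ZT18 in long days and at ZT14 in short days, with at least 10 TPM at each peak. Of 37849 genes, 2783 (7.35%) met this. The 150 with the largest score were kept, the score being the smaller of the long-day and short-day log2 ratios of highest to lowest mean TPM plus 1. Scores ran from 6.91 to 2.20 with a median of 2.70. The last gene kept, Os12g0527301, scored 2.203 and the first left out, Os03g0151700, scored 2.199. Because wild-type values chose the genes, wild-type levels are given below as a description with no test, and each test compares mutant groups only. The wild-type libraries are part of the same fit and enter its scaling, its filter and its estimate of the spread. An alternative that fits only the compared groups leaves them out.

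RNA was sequenced from plants labelled as whole plants of 21 days. The genotypes are an OsELF3-1 OsELF3-2 double mutant (labelled Oself3-1 -/- Oself3-2 -/-, called elf3-1 elf3-2 below), OsphyB-/- (phyB), OsLUX-/- (lux) and wild type (WT) of the japonica cultivar Nipponbare. Plants grew in long days of 14 h light and 10 h dark (LD) or in short days of 10 h light and 14 h dark (SD). The elf3-1 elf3-2 and phyB plants were sampled in both day lengths at ZT6, ZT14 and ZT18, lux plants at ZT14 in SD alone, and WT plants at ZT2, ZT6, ZT10, ZT14, ZT18 and ZT24 in LD and SD. How many lines stand behind each mutant, and whether plants were pooled, is not given in the labels used here. Nothing in them says that replicates came from separate cultures of plants, so p-values measure only the spread between these samples, which may be technical. In whole-plant RNA, fewer cells of a type and less RNA per cell cannot be told apart.

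ELF3 and LUX are parts of the Evening Complex, a transcriptional repressor of the plant clock that acts around dusk and in the night. Phytochrome B is a red-light receptor, active in the day and slowly inactivated in darkness, and in Arabidopsis it binds ELF3. Day length sets how long the night lasts, and in plants genes that respond to darkness itself change phase with lights off. Genes held by the clock keep a phase set by dawn or dusk, and one set by dusk also moves with lights off. A peak that moves with lights off therefore does not tell these classes apart.

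Of 74 libraries, 17 were left out of the values below and enter only as an alternative: replicate 1 at ZT6 and ZT14 of elf3-1 elf3-2, phyB and WT and, in WT alone, the ZT10 libraries numbered 1 and the ZT2 and ZT24 libraries numbered 3. At ZT6 and ZT14 their positions on scales of genotype markers went against the labels. The libraries labelled WT replicate 1 stood at 0.99 to 1.00 on the phyB scale, where 1 is phyB. On the elf3-1 elf3-2 scale, libraries labelled phyB replicate 1 reached 0.96 to 1.04, whereas those labelled elf3-1 elf3-2 replicate 1 reached 0.02 to 0.18. Among the remaining WT libraries left out, the first replicate at ZT10 and the third replicate at ZT24 and, in SD, at ZT2 were closer to a different WT group, whereas the third replicate at ZT2 in LD was closest to its own. The 57 libraries that remain form 25 groups, 18 of 2 libraries and 7 of 3. Between 25660600 and 74126768 counts were assigned to genes per library (median 34754788). Leaf marker genes were abundant in all groups, while 4 root markers summed to no more than 23.0 TPM in any elf3-1 elf3-2, phyB or WT library. In the lux libraries they summed to 809 to 996 TPM.

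In elf3-1 elf3-2, phyB and WT alike, the 150 genes had a higher median at ZT14 and ZT18 than at ZT6. Their median level in elf3-1 elf3-2 was 15.7 TPM at ZT6, 26.0 at ZT14 and 40.1 at ZT18 in LD, and 24.2, 57.4 and 47.7 TPM at the same times in SD. In phyB the median was 13.8, 25.5 and 36.7 TPM in LD and 18.6, 53.6 and 45.8 TPM in SD. In WT it was 5.27 TPM at ZT2, 8.42 at ZT6, 17.6 at ZT10, 29.1 at ZT14, 49.1 at ZT18 and 16.3 at ZT24 in LD. The SD values at these times were 9.12, 11.9, 24.2, 67.0, 48.1 and 11.4 TPM. By ZT24 the WT median had fallen, in SD to below its ZT6 level, and the mutants were not sampled then. The median was thus highest at ZT18 in LD and at ZT14 in SD in all 3 genotypes, by rule in WT and as a measurement in the mutants. In phyB in SD the 2 times overlapped once 11 genes described below were set aside. The median of the other 139 per library was 50.7 and 51.4 TPM at ZT14 and 49.3 to 50.8 TPM at ZT18. Their median log2 change of ZT18 over ZT14 there was -0.02. Gene by gene and by sign alone, 91 of the 150 stood higher at ZT18 in LD and higher at ZT14 in SD in elf3-1 elf3-2, and 61 of 150 in phyB, beside 19.7% and 24.1% of all genes tested. The WT lowest point fell at ZT2 in LD for 111 of the 150 genes, and in SD at ZT2 for 68 and at ZT24 for 55. Peak levels of single genes in WT ran from 10.8 to 1939 TPM in LD and from 10.1 to 2325 TPM in SD.

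**Figure D1:**
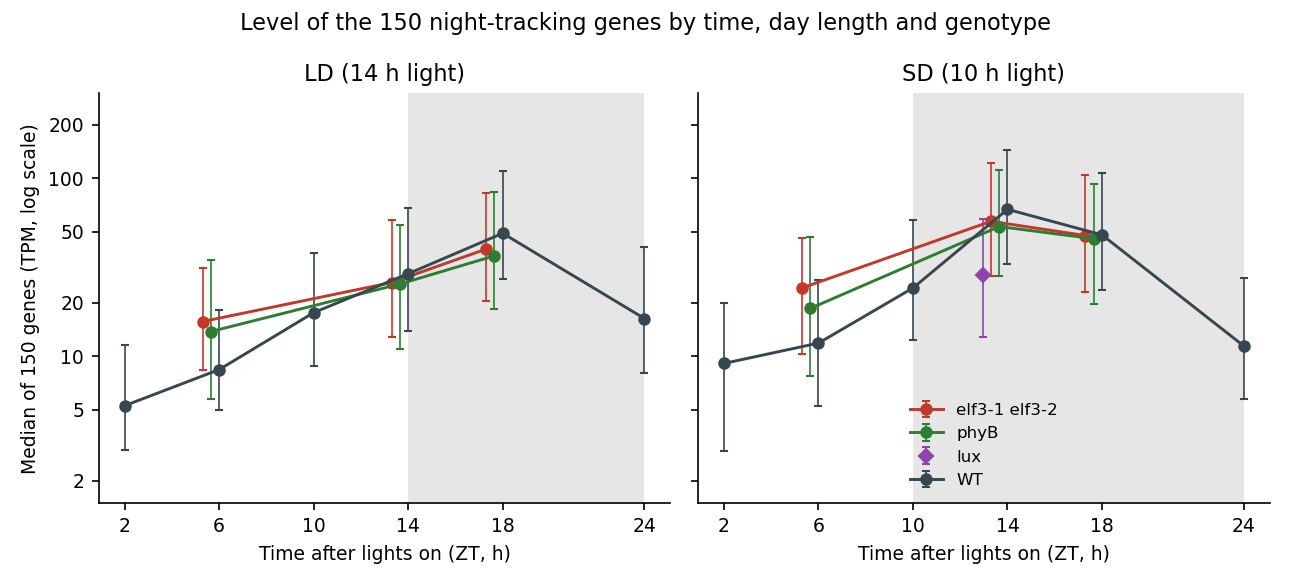
Median level of the 150 genes (TPM, log scale) against time after lights on, in long days (left) and short days (right); points are medians over genes of group means, bars the quartiles over genes, and grey marks darkness. Mutant points are drawn slightly to the left of WT. In elf3-1 elf3-2 the median is higher at ZT18 than at ZT14 in LD (40.1 and 26.0 TPM) and lower in SD (47.7 and 57.4 TPM).

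The members are given by identifier, since the files pair none of them with a gene name, and no role is assigned to them. Os04g0119000 had the highest score. It stood in elf3-1 elf3-2 at 26.1 and 9.31 TPM at ZT6, 50.05 and 77.9 at ZT14 and 131, 155 and 138 at ZT18 in LD. In SD the elf3-1 elf3-2 libraries held 16.7 and 36.6 TPM at ZT6, 283 and 348 at ZT14 and 210, 252 and 255 at ZT18. Every library of ZT14 and ZT18 was above every ZT6 library, and the SD libraries at ZT14 and ZT18 were all above the LD ones. In phyB the gene stood at 8.37 and 3.17 TPM, then 30.2 and 33.7, then 83.0, 92.2 and 92.3 at these times in LD. In SD phyB held 4.43 and 6.22 TPM at ZT6, 181 and 201 at ZT14 and 118, 120 and 135 at ZT18. The order of times was the same as in elf3-1 elf3-2 at a lower level. WT held 1.05 and 0.215 TPM at ZT6, 66.1 and 84.0 at ZT14 and 151, 173 and 178 at ZT18 in LD. WT in SD held 4.32 and 4.25 TPM at ZT6, 414 and 508 at ZT14 and 285, 294 and 291 at ZT18. In the mutants its log2 change of ZT18 over ZT14 in LD was 1.11 in elf3-1 elf3-2 (SE 0.244, edgeR quasi-likelihood test, adjusted p = 0.000556) and 1.37 in phyB (SE 0.262, adjusted p = 7.2e-05), while the SD changes of -0.30 and -0.46 did not pass.

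Os03g0765400, second by score, shows the reversal of the night change in phyB. In LD phyB held 133, 124 and 124 TPM at ZT18 and 46.5 and 40.4 TPM at ZT14. In SD phyB held 83.0, 74.7 and 60.6 TPM at ZT18 and 187 and 149 TPM at ZT14. The libraries of these times did not overlap in LD or SD, and the order was opposite. The log2 change of ZT18 over ZT14 was 1.34 in LD (SE 0.25, edgeR quasi-likelihood test, adjusted p = 5.66e-05) and -1.09 in SD (SE 0.232, adjusted p = 0.000637). In elf3-1 elf3-2 the LD libraries held 123, 120 and 96.4 TPM at ZT18 and 49.5 and 69.6 TPM at ZT14, a log2 change of 0.81 (SE 0.243, adjusted p = 0.0101). In SD they held 127, 199 and 126 TPM at ZT18 and 177 and 167 TPM at ZT14, which overlap, and the change of -0.12 (SE 0.23) did not pass.

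Os06g0298200 changed in LD alone at the threshold used. It held 138, 156 and 126 TPM at ZT18 and 59.6 and 64.5 TPM at ZT14 in LD in elf3-1 elf3-2, against 202, 196 and 177 TPM at ZT18 and 181 and 179 TPM at ZT14 in SD. In phyB it held 151, 156 and 143 TPM at ZT18 and 55.1 and 51.0 TPM at ZT14 in LD, against 202, 203 and 191 TPM at ZT18 and 202 and 196 TPM at ZT14 in SD. Levels at ZT14 were thus set apart by day length, and levels at ZT18 less so. The difference between the LD and SD changes was 0.95 in elf3-1 elf3-2 (SE 0.267, adjusted p = 0.0126) and 1.21 in phyB (SE 0.268, adjusted p = 0.000761).

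**Figure D2:**
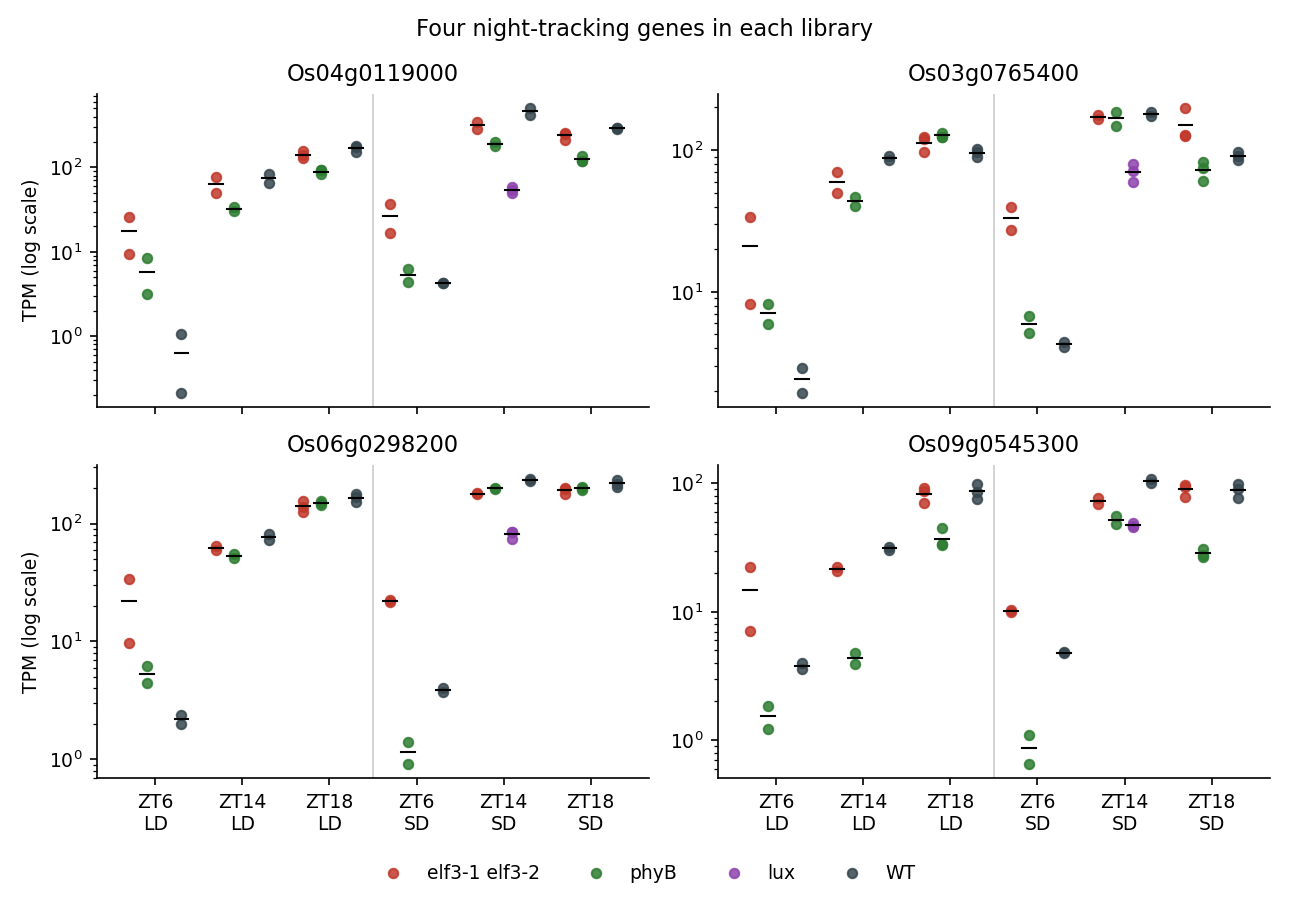
TPM (log scale) of Os04g0119000, Os03g0765400, Os06g0298200 and Os09g0545300 in each library kept, by time and day length; each point is a library and each short line a group mean. For Os06g0298200 the phyB libraries lie at 51.0 and 55.1 TPM at ZT14 in LD and at 143 to 156 TPM at ZT18 in LD, and at 191 to 203 TPM at ZT14 and ZT18 in SD.

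The first comparison asks whether the night change seen in WT, where the median log2 ratio of ZT18 over ZT14 (TPM + 1) was 0.62 in LD and -0.41 in SD, is also present in plants that lack ELF3 or phyB. The change runs from lights off to 4 h of darkness in LD and from 4 h to 8 h of darkness in SD. In elf3-1 elf3-2 in LD, 68 of the 150 genes were called higher at ZT18 than at ZT14 and 1 lower, at an adjusted p below 0.05. Of all 28905 genes tested, 30.5% were called, 15.3% higher and 15.1% lower. The median log2 change was 0.44 over the 150 genes and 0.01 over all genes. In SD, 1 of the 150 was called higher at ZT18 and 26 lower, where 12.9% of all genes were called, 6.74% higher and 6.18% lower, and the median was -0.23. In phyB in LD, 63 were called higher and 10 lower, where 29.9% of all genes were called, 15.4% higher and 14.5% lower, with a median of 0.28. In phyB in SD, 7 were called higher and 29 lower, where 17.7% of all genes were called, 9.04% higher and 8.68% lower, with a median of -0.06. Relative log expression size factors in place of TMM gave 13 higher and 28 lower in that comparison. Fitting only the compared groups gave 9 lower and 1 higher in SD for elf3-1 elf3-2, against 41 lower and 17 higher for phyB. Without replicate 2 of elf3-1 elf3-2 at ZT14 in LD, 41 genes were called higher and 0 lower in LD there. With every library kept under its label, 15 genes were called higher and 0 lower in LD and 0 higher and 3 lower in SD in elf3-1 elf3-2. The counts in phyB were then 30 and 1 in LD and 0 and 13 in SD. Of all genes, that fit called 8.41% in LD and 8.67% in SD in elf3-1 elf3-2, and 17.5% and 4.25% in phyB.

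The difference between the LD and the SD change was tested gene by gene as an interaction. In elf3-1 elf3-2 it was called above 0 for 77 of the 150 genes and below 0 for 0, while 14.7% of all genes were called, 6.88% above and 7.80% below. By the unadjusted p and by DESeq2 the count below 0 was also 0, and with only the compared groups fitted 53 genes were called above 0 and 1 below. The value was above 0, called or not, for 144 of the 150 genes, and the median was 0.68 on the log2 scale against 0.02 over all genes. In phyB 65 genes were called above 0 and 6 below, where 21.0% of all genes were called, 11% above and 10.0% below, and 110 values were above 0. The phyB median was 0.53, against 0.07 over all genes. A full reversal, called higher at ZT18 in LD and lower at ZT18 in SD, was reached by 7 genes in elf3-1 elf3-2 and 7 in phyB, beside 0.280% and 1.09% of all genes. Leaf marker genes moved as well: 0 of 4 were called above 0 and 2 below in elf3-1 elf3-2, and 0 above and 4 below in phyB. Their summed level in phyB was 4988 to 6346 TPM at ZT18 and 10808 to 11128 TPM at ZT14 in LD, against 10376 to 10536 TPM at ZT18 and 5306 to 5329 TPM at ZT14 in SD, with none at 0, and their part in the result was not tested.

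With every library kept under its label, the interaction was called for 0 of the 150 genes in elf3-1 elf3-2, where 23 had an unadjusted p below 0.05 and no gene of all 28912 tested was called. In phyB 21 genes were called above 0 and 0 below in that fit, where 3.68% of all genes were called. Leaving out replicate 2 of elf3-1 elf3-2 at ZT14 in LD gave 44 genes above 0 in elf3-1 elf3-2.

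**Figure D3:**
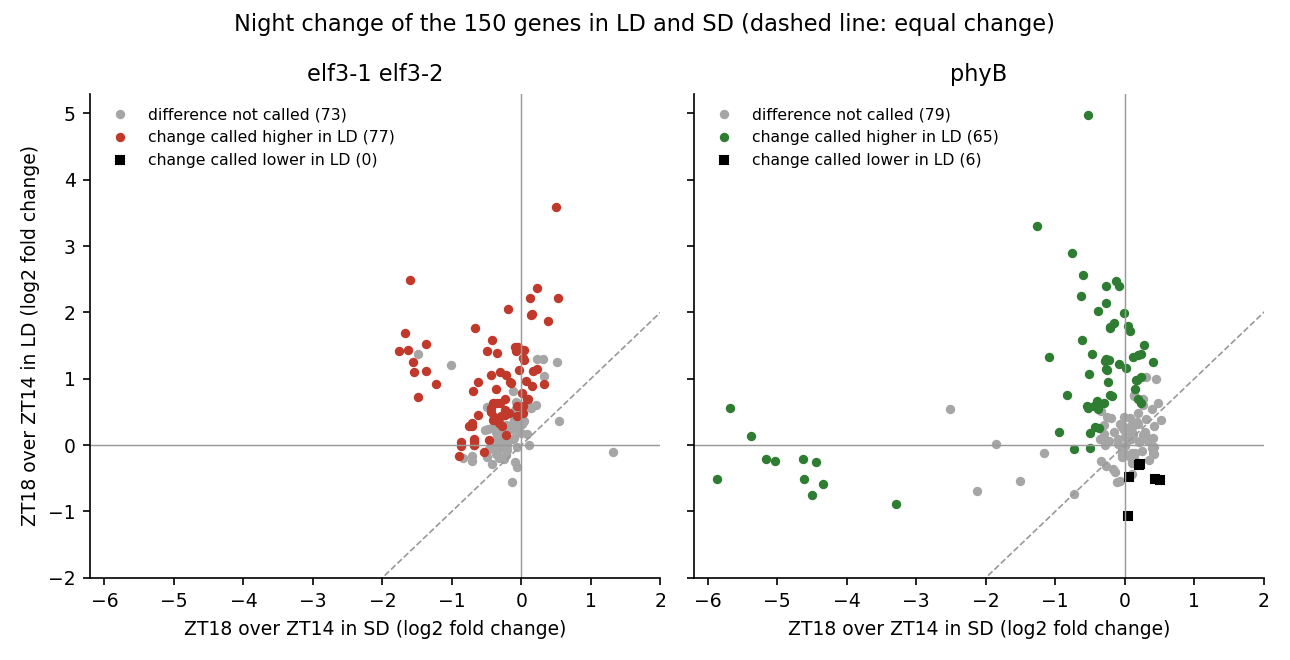
Log2 fold change of ZT18 over ZT14 in long days (vertical) against that in short days (horizontal) for each of the 150 genes in elf3-1 elf3-2 (left) and phyB (right). Points above the dashed line have a higher change in LD than in SD; colour marks the 77 genes in elf3-1 elf3-2 and 65 in phyB called above 0 for the difference, and black squares the 6 called below 0 in phyB.

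Larger differences between the LD and SD changes were found lower in the order of scores. Os06g0559400 held 18.8, 18.6 and 10.6 TPM at ZT18 and 1.43 and 1.05 TPM at ZT14 in LD in elf3-1 elf3-2. In SD it held 41.0, 75.3 and 51.2 TPM at ZT18 and 40.5 and 42.9 TPM at ZT14. In phyB it held 16.8, 14.5 and 14.1 TPM at ZT18 and 0.379 and 0.434 TPM at ZT14 in LD. In SD phyB held 29.8, 21.1 and 19.7 TPM at ZT18 and 36.5 and 37.6 TPM at ZT14. At the same clock time, ZT14, its libraries lay far lower in LD than in SD in both mutants, with no overlap. Its interaction was 3.09 in elf3-1 elf3-2 (SE 0.43, adjusted p = 1.78e-06) and 5.51 in phyB (SE 0.517, adjusted p = 9.43e-11). Os03g0169700 held 61.6, 63.5 and 55.2 TPM at ZT18 in LD in phyB, against 5.98 and 4.78 TPM at ZT14. In SD it held 19.6, 20.2 and 22.6 TPM at ZT18 and 56.8 and 50.9 TPM at ZT14 in phyB, a reversal with no overlap. Its interaction was 4.56 in phyB (SE 0.352, adjusted p = 7.76e-13) and 2.44 in elf3-1 elf3-2 (SE 0.411, adjusted p = 4.23e-05). Os03g0725200 had the largest interaction in elf3-1 elf3-2, 4.08 (SE 0.781, adjusted p = 0.000264), but its elf3-1 elf3-2 libraries ran from 3.63 to 19.9 TPM at ZT18 in LD. In phyB its value of 3.06 (SE 1.26) did not pass, and in elf3-1 elf3-2 it was not called when only the compared groups were fitted. Os07g0258400 with 3.37 (SE 0.849, adjusted p = 0.00546) and Os01g0495701 with 3.18 (SE 0.725, adjusted p = 0.00204) followed in elf3-1 elf3-2. Without replicate 2 at ZT14 in LD, or without replicate 3 at ZT18 in LD, Os07g0258400 did not pass.

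Of the 6 genes of phyB called below 0 for the interaction, Os08g0485900 had the lowest value, -1.12 (SE 0.257, adjusted p = 0.00117). The count depends on the fit, with 13 genes when only the compared groups were fitted, 9 with the replicate block, and 3 with limma at either pseudocount. It held 45.8, 51.0 and 39.8 TPM at ZT18 and 86.1 and 83.8 TPM at ZT14 in LD in phyB, and 62.5, 76.5 and 66.6 TPM at ZT18 and 72.3 and 71.8 TPM at ZT14 in SD. It was thus lower at ZT18 in LD, with no overlap, while the SD libraries overlapped. Os07g0626800 followed with -1.03 (SE 0.205, adjusted p = 0.000188) and Os11g0544000 with -0.96 (SE 0.244, adjusted p = 0.00328). Both of these were called lower at ZT18 in LD in phyB, and Os07g0626800 was called higher at ZT18 in SD.

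The difference between day lengths at a fixed clock time was larger at ZT14 than at ZT18. ZT14 is lights off in LD and 4 h into darkness in SD. In elf3-1 elf3-2, 2 of the 150 genes were called higher in LD and 124 lower, where 39.5% of all genes were called, 19.5% higher and 20% lower, and the median log2 ratio of LD over SD was -1.15. In phyB 0 were called higher and 101 lower, where 34.0% of all genes were called, 16.3% higher and 17.8% lower, and the median was -0.82. The count of 0 was also 0 by the unadjusted p and by DESeq2. At ZT18, which is 4 h into darkness in LD and 8 h in SD, the elf3-1 elf3-2 plants had 13 genes called higher in LD and 82 lower, where 37.3% of all genes were called, 18.1% higher and 19.2% lower, with a median of -0.40. In phyB 12 were called higher and 66 lower, where 28.5% of all genes were called, 14.1% higher and 14.4% lower, with a median of -0.27. The SD level was thus the higher for most called genes at both times. With limma on log2(TPM + 0.1) 51 genes were called at ZT18 in phyB, 13 higher and 38 lower. Leaf marker genes differed with day length too. At ZT14 1 of the 4 was called higher in LD and 2 lower in elf3-1 elf3-2, with a median of -0.03, while in phyB all 4 were called higher in LD, with a median of 1.49. At ZT18 all 4 were called lower in LD in elf3-1 elf3-2 (median -0.99), while 2 were lower and 0 higher in phyB (median -0.65). Their sums at ZT14 were 6404 to 6816 TPM in LD and 8064 to 8555 TPM in SD in elf3-1 elf3-2, and those of phyB are given above. Their part in the result was not tested. With every library under its label 33 genes were called lower at ZT14 in elf3-1 elf3-2 and 63 in phyB. At ZT18 the counts were 2 above and 16 below for elf3-1 elf3-2, against 1 and 4 for phyB. In that fit 6.52% of all genes were called at ZT14 in elf3-1 elf3-2 and 23.1% in phyB, and at ZT18 14.5% and 6.44%.

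At the same 4 h of darkness, ZT18 in LD and ZT14 in SD, the LD level was the lower for most of the 150 genes. The median log2 ratio of the LD over the SD mean (TPM + 1) was -0.55 in elf3-1 elf3-2, -0.33 in phyB and -0.50 in WT. Over 14410 genes of at least 10 TPM on average the median was 0.05, 0.01 and 0.05. It was the lower for 128 of the 150 genes in elf3-1 elf3-2, 141 in phyB and 121 in WT. The share of the 14410 genes with a lower LD level was not counted, and these values carry no test.

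The rise from midday to night was present in both mutants. In elf3-1 elf3-2, 134 of the 150 genes were called higher at ZT18 than at ZT6 in LD and 0 lower, where 30.9% of all genes were called, 16.1% higher and 14.8% lower, with a median log2 change of 1.03. In SD, 131 were called higher at ZT14 than at ZT6 and 2 lower, where 34.6% of all genes were called, 17.5% higher and 17.2% lower, with a median of 1.15. In phyB the counts were 90 higher and 3 lower in LD, where 39.2% of all genes were called, 21.3% higher and 17.9% lower. In SD they were 91 higher and 8 lower, where 40.2% were called, 22.2% higher and 18% lower. The phyB medians were 0.69 and 0.74. No gene was called lower in elf3-1 elf3-2 in LD by the unadjusted p or by DESeq2 either. Without replicate 3 of elf3-1 elf3-2 at ZT6 in LD the count there was 88 higher, and with every library under its label it was 44. In that fit 86 genes were called higher in SD in elf3-1 elf3-2, and in phyB 58 in LD and 68 in SD. Of all genes, it called 15.9% in LD and 14.7% in SD in elf3-1 elf3-2, and 25.1% and 27% in phyB. With only the compared groups fitted, 87 were called higher in LD in elf3-1 elf3-2. Leaf marker genes moved the other way. At ZT18 against ZT6 in LD 4 of 4 were called lower in both mutants, with medians of -2.20 in elf3-1 elf3-2 and -2.80 in phyB. At ZT14 against ZT6 in SD 3 of 4 were called lower in elf3-1 elf3-2 (median -1.77) and 4 of 4 in phyB (median -3.19). In elf3-1 elf3-2 they summed to 4994 to 6887 TPM at ZT18 and 16495 to 17557 TPM at ZT6 in LD, and in phyB to 4988 to 6346 TPM at ZT18 and 21231 to 24115 TPM at ZT6 in LD. Their part in the result was not tested.

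Set beside WT, both mutants had their largest median log2 ratios at ZT6. Over all 150 genes the median at ZT6 was 0.59 in LD and 0.73 in SD in elf3-1 elf3-2, with 134 and 140 genes above 0, and 0.65 and 0.60 in phyB, with 109 and 115 above 0. Over all genes of at least 10 TPM in either group the median was 0.04 and 0.14 in elf3-1 elf3-2 and -0.07 and -0.04 in phyB. The genes were chosen for WT levels that are low at their lowest time, which lies by day for most. A gene can also reach the minimum used below through the mutant alone, so nothing is read from the following counts, which are a description: a gene counts where its mutant and WT libraries do not overlap, its ratio of mean TPM plus 1 is at least 2-fold, and it reaches 10 TPM in either group. At ZT6 in LD 33 of 102 genes at this minimum were higher in elf3-1 elf3-2 and 0 lower, where 1.93% of all such genes were counted, 1.69% higher and 0.244% lower. In SD 36 of 115 were higher and 0 lower, beside 5.02% (4.37% higher and 0.652% lower). In phyB 40 of 99 were higher and 4 lower in LD, beside 6.71% (3.12% higher and 3.59% lower), and 28 of 113 higher and 7 lower in SD, beside 6.43% (3.21% and 3.22%). The median level at ZT6 was 15.7 TPM in elf3-1 elf3-2, 13.8 in phyB and 8.42 in WT in LD, and 24.2, 18.6 and 11.9 TPM in SD. The elf3-1 elf3-2 libraries at ZT6 in LD differed among themselves, with medians of 20.2 TPM in replicate 2 and 11.4 in replicate 3. Without replicate 2 the LD count was 13, and without replicate 3 it was 51. With every library under its label the counts at ZT6, under the same limit, were 26 in LD and 6 in SD in elf3-1 elf3-2, against 2 in LD and 1 in SD in phyB.

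As an example with a high night level, Os02g0724000 is described at ZT6 and ZT18, and nothing is read from its distance to WT. This gene has its lowest WT level at ZT6 in LD and SD, which the score used. It held 79.1 and 28.1 TPM at ZT6 in LD in elf3-1 elf3-2, 17.1 and 11.2 TPM in phyB and 8.55 and 8.40 TPM in WT. In SD it held 55.0 and 40.02 TPM in elf3-1 elf3-2, 4.84 and 5.49 TPM in phyB and 6.07 and 6.41 TPM in WT. At ZT18 in LD it held 156, 176 and 161 TPM in elf3-1 elf3-2, 160, 160 and 151 in phyB and 190, 195 and 180 in WT, so elf3-1 elf3-2 stood far above WT by day and somewhat below it by night. The phyB libraries stood above WT at ZT6 in LD and below it in SD. Os02g0578400, also among the 10 first by score, was higher in both mutants at ZT6, with 25.02 and 12.7 TPM in elf3-1 elf3-2, 14.7 and 16.4 in phyB and 3.80 and 4.83 in WT in LD. In SD it held 29.5 and 38.0 TPM in elf3-1 elf3-2, 20.9 and 24.8 in phyB and 7.71 and 11.3 in WT.

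At ZT14 and ZT18 the median of elf3-1 elf3-2 lay slightly below that of WT. The rule chose genes whose WT level is highest at ZT18 in LD and at ZT14 in SD. A WT level above that of a mutant at these times is thus partly set by the rule, and nothing is read from the counts. By the same description 1 gene was higher and 0 lower at ZT14 in LD, beside 1.73% of all genes at the same minimum (1.56% and 0.171%). At ZT14 in SD 1 was higher and 3 lower, beside 2.31% (2.05% and 0.253%). At ZT18 it was 1 higher and 1 lower in LD, beside 2.2% (2.11% and 0.086%), and 1 and 1 in SD, beside 1.84% (1.6% and 0.236%). Median log2 ratios of elf3-1 elf3-2 over WT at these 4 points ran from -0.30 to -0.11. The ZT18 count in LD was 15 without replicate 3 of elf3-1 elf3-2 and 15 without replicate 2 of WT. At ZT14 it was 9 in LD without replicate 2 of elf3-1 elf3-2, 4 without its replicate 3 and 3 without replicate 3 of WT, and 11 in SD without replicate 3 of elf3-1 elf3-2. Os04g0175600 was higher in elf3-1 elf3-2 than in WT at ZT14 and ZT18 in LD and SD. At ZT18 in LD it held 78.3, 74.3 and 59.9 TPM in elf3-1 elf3-2, 48.5, 47.3 and 49.5 in phyB and 15.6, 21.3 and 17.1 in WT. At ZT18 in SD it held 80.9, 128 and 109 TPM in elf3-1 elf3-2, 68.1, 58.9 and 63.7 in phyB and 22.4, 25.6 and 26.4 in WT. Neither mutant overlapped WT at these points. Os03g0169700 was the gene counted lower at ZT18 in LD, with 7.40, 11.4 and 18.6 TPM in elf3-1 elf3-2 and 39.3, 40.3 and 34.2 TPM in WT.

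For phyB the same description gave more genes lower than higher at ZT18. The limit just given for WT levels at ZT18 in LD and ZT14 in SD holds here too, so nothing is read from these counts. At ZT18 in LD 1 gene was higher and 28 lower than in WT, beside 5.96% of all genes at the same minimum (3.36% and 2.6%). At ZT18 in SD 1 was higher and 8 lower, beside 3.96% (2.15% and 1.81%). At ZT14 1 was higher and 15 lower in LD, beside 7.58% (4.22% and 3.35%), and 12 were higher and 15 lower in SD, beside 8.58% (6.77% and 1.82%). With every library under its label the ZT14 counts in phyB were 0 in LD and 0 in SD. Os02g0240300 held 96.0, 103 and 90.5 TPM at ZT18 in LD in phyB, against 343, 333 and 290 TPM in WT. At ZT14 in SD it held 176 and 219 TPM in phyB, against 957 and 845 TPM in WT. Of the 28 genes lower at ZT18 in LD, 11 belong to the set described below that shares the pattern of Os07g0142100 from library to library.

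**Figure D4:**
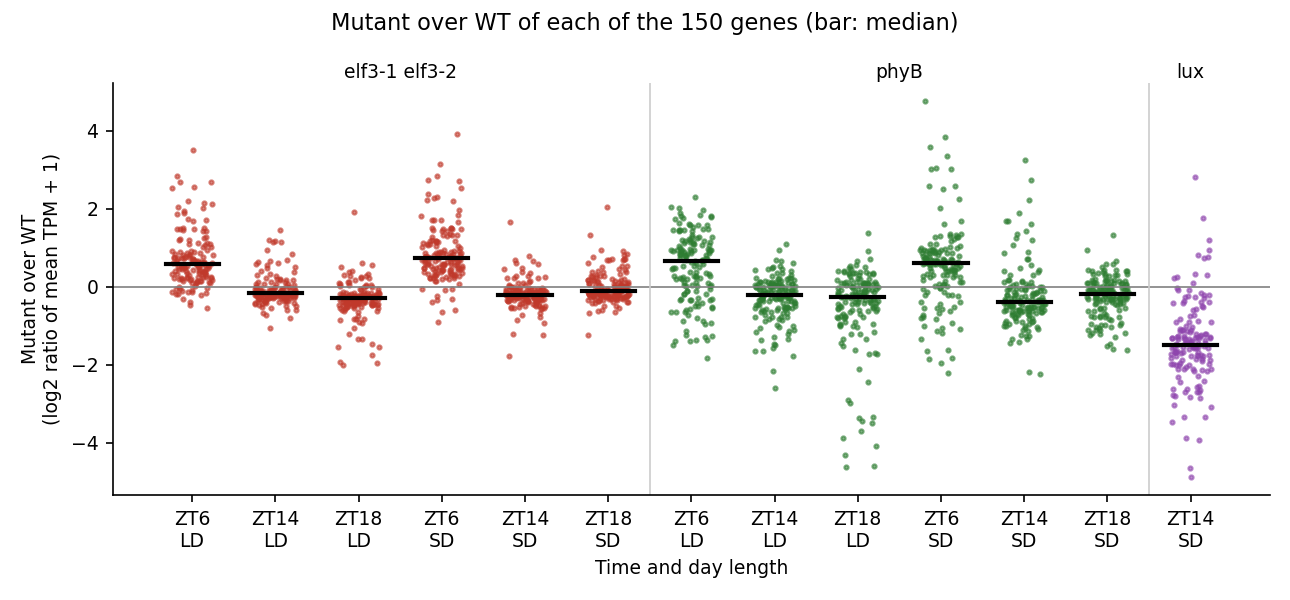
Log2 ratio of mean TPM plus 1 in each mutant over WT for each of the 150 genes, by time and day length; points are genes and bars medians. The medians are 0.59 and 0.73 in elf3-1 elf3-2 and 0.65 and 0.60 in phyB at ZT6 (LD and SD), lie between -0.39 and -0.11 at ZT14 and ZT18, and reach -1.48 in lux.

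In SD nights more of the 150 genes were called higher than lower in elf3-1 elf3-2 relative to phyB. At ZT14 in SD 50 genes were called higher in elf3-1 elf3-2 than in phyB and 9 lower, where 22.7% of all genes were called, 12.2% higher and 10.5% lower. At ZT18 in SD 47 were higher and 16 lower, where 31.6% were called (16.5% and 15.1%). At ZT14 in LD 26 were called higher and 26 lower, beside 25% (12.4% and 12.6%), and at ZT18 in LD 42 and 34, beside 35.2% (17.5% and 17.7%). At ZT6 the counts were 38 higher and 55 lower in LD, beside 23.5% (12.2% and 11.3%), and 42 higher and 36 lower in SD, beside 26.9% (14.4% and 12.4%). The ZT14 count in SD rests on single libraries: 23 genes were called in all without replicate 3 of elf3-1 elf3-2, 23 without replicate 2 of phyB and 38 without its replicate 3. At ZT14 in LD 30 were called without replicate 2 of phyB, and at ZT6 in SD 44 without replicate 2 of elf3-1 elf3-2. With only the compared groups fitted, 14 were called higher and 19 lower at ZT6 in LD, and with limma on log2(TPM + 0.1) 25 higher and 7 lower at ZT14 in SD. With every library under its label, edgeR called 0 genes at ZT14 in LD (2 at an unadjusted p below 0.05), 1 at ZT14 in SD, 22 at ZT18 in LD and 7 at ZT18 in SD, the last with 3 higher and 4 lower. At ZT6 it then called 3 in LD and 0 in SD (26 at an unadjusted p below 0.05). Of all genes, that fit called 2.31% in LD and 0.038% in SD at ZT6, and 0% and 2.11% at ZT14. At ZT18 it called 12.2% and 10.1%.

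Os04g0458300 was higher in elf3-1 elf3-2 at each of these points. At ZT14 in SD it held 52.0 and 50.1 TPM in elf3-1 elf3-2 and 15.9 and 22.1 TPM in phyB, a log2 difference of 1.51 (SE 0.193, adjusted p = 1.24e-07). At ZT18 in LD it held 36.2, 42.3 and 39.8 TPM in elf3-1 elf3-2 and 11.1, 13.7 and 14.6 TPM in phyB. Os07g0249800 held 19.8 and 19.8 TPM in elf3-1 elf3-2 and 7.96 and 6.42 TPM in phyB at ZT14 in SD, a difference of 1.56 (SE 0.197, adjusted p = 1.12e-07). Os11g0264500 held 45.6 and 54.1 TPM in elf3-1 elf3-2 and 15.9 and 21.2 TPM in phyB there, a difference of 1.53 (SE 0.245, adjusted p = 1.05e-05). Os03g0169700 was lower, with 12.3 and 11.1 TPM in elf3-1 elf3-2 and 56.8 and 50.9 TPM in phyB, a difference of -2.11 (SE 0.259, adjusted p = 6.12e-08). It also had the largest called decrease at ZT18 in LD, with 7.40, 11.4 and 18.6 TPM in elf3-1 elf3-2 and 61.6, 63.5 and 55.2 TPM in phyB (log2 difference -2.23, SE 0.213, adjusted p = 1.2e-10). Os12g0290200 and Os10g0415200 followed at ZT18 in LD with -0.91 (SE 0.166, adjusted p = 3.45e-05) and -0.82 (SE 0.115, adjusted p = 3.32e-07).

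The interaction itself differed between elf3-1 elf3-2 and phyB for 24 of the 150 genes, 14 with the higher signed value in elf3-1 elf3-2 and 10 with the higher signed value in phyB, beside 7.12% of all genes (3.89% and 3.23%). Relative log expression size factors gave 18 and 8, the replicate block 24 and 15, and limma on log2(TPM + 0.1) 3 and 10. Os09g0545300 had the largest called difference of those below 0. It held 69.8, 91.9 and 88.0 TPM at ZT18 and 22.5 and 20.9 TPM at ZT14 in LD in elf3-1 elf3-2, against 33.8, 33.0 and 44.6 TPM at ZT18 and 3.93 and 4.77 TPM at ZT14 in phyB. In SD it held 78.4, 97.5 and 93.9 TPM at ZT18 and 76.5 and 68.6 TPM at ZT14 in elf3-1 elf3-2, against 30.7, 26.7 and 27.9 TPM at ZT18 and 47.9 and 56.0 TPM at ZT14 in phyB. In SD the gene was called lower at ZT18 than at ZT14 in phyB and did not pass in elf3-1 elf3-2. Its interaction was 1.49 in elf3-1 elf3-2 and 3.65 in phyB, and their difference was -2.17 (SE 0.414, adjusted p = 0.000514). Without replicate 2 of elf3-1 elf3-2 at ZT14 in LD 12 genes differed, without replicate 3 of elf3-1 elf3-2 at ZT14 in SD 8, without replicate 2 of phyB at ZT14 in LD 10, and without replicate 2 of phyB at ZT14 in SD 12. With every library under its label 0 were called by edgeR, where 0 of all 28912 genes tested were called, and 1 had an unadjusted p below 0.05.

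The lux libraries, taken at ZT14 in SD, held these genes at a lower level than the other genotypes. Their median was 28.8 TPM in lux, 57.4 in elf3-1 elf3-2, 53.6 in phyB and 67.0 in WT. Against elf3-1 elf3-2, 8 of the 150 genes were called higher in lux and 131 lower, where 64.4% of all genes were called, 34.9% higher and 29.5% lower, with a median log2 difference of -1.50 over the 150 and 0.04 over all genes. Against WT, by the description above, 3 were higher and 111 lower, beside 31.9% (21.4% and 10.4%). The rule chose genes with their highest SD level in WT at this time, so nothing is read from the counts against WT. Tissue markers moved with this difference. The 4 root markers summed to 809 to 996 TPM in lux, 7.07 to 11.1 in elf3-1 elf3-2, 14.7 to 18.1 in phyB and 15.5 to 18.4 in WT at ZT14 in SD, with 0 of the 4 at 0 in lux and 1 or 2 of the 4 at 0 in the other groups. The 4 leaf markers summed to 3224 to 3908 TPM in lux, 8064 to 8555 in elf3-1 elf3-2, 5306 to 5329 in phyB and 8200 to 8416 in WT. The 2 markers of dividing cells summed to 70.5 to 89.0 TPM in lux and to no more than 29.8 TPM in the other genotypes at this time. Their part in the result was not tested.

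Os04g0175600 was lower in lux, with 2.77, 3.95 and 5.06 TPM in lux, against 96.6 and 103 TPM in elf3-1 elf3-2 and 31.9 and 30 TPM in WT. Its log2 difference of lux over elf3-1 elf3-2 was -4.85 (SE 0.235, adjusted p = 1.12e-19). Os02g0240300 held 39.8, 35.5 and 29.3 TPM in lux, against 432 and 516 TPM in elf3-1 elf3-2 (log2 difference -3.98, SE 0.264, adjusted p = 1.56e-15). Os04g0119000 held 49.4, 53.8 and 58.4 TPM in lux, against 283 and 348 TPM in elf3-1 elf3-2. These 3 genes were far below every other genotype with no overlap. Os10g0556100 rose instead, with 223, 234 and 240 TPM in lux, against 25.8 and 19.8 TPM in elf3-1 elf3-2 (3.13, SE 0.306, adjusted p = 3.74e-11). Os07g0676900 held 152, 147 and 127 TPM in lux, against 29.6 and 31.9 TPM in elf3-1 elf3-2, and Os07g0480800 held 55.4, 66.0 and 63.4 TPM in lux, against 19.8 and 22.7 TPM. These were also the 3 genes above WT. The largest called decreases were those of Os07g0142100 at -6.70 (SE 1.13, adjusted p = 3.83e-06) and Os12g0236225 at -5.08, both of the set described next.

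Within the 150, 11 genes shared a pattern from library to library. They were picked after their values were seen, as the genes whose log2 TPM over the 31 mutant libraries correlated above 0.8 with Os07g0142100. The lowest such r was 0.856 and the next gene stood at 0.623. They are Os07g0142100, Os12g0236225, Os11g0262600, Os01g0952800, Os10g0195250, Os07g0258400, Os02g0594166, Os03g0431600, Os01g0495701, Os01g0608101 and Os01g0647200. Os07g0142100 held 21.9, 41.5 and 201 TPM at ZT18 in LD in elf3-1 elf3-2, 20.3, 14.2 and 22.8 in phyB and 427, 138 and 458 in WT. At ZT14 in SD it held 148 and 50.1 TPM in elf3-1 elf3-2, 738 and 379 in phyB, 0.395, 1.17 and 1.42 in lux and 54.1 and 60.4 in WT. At ZT6 in SD phyB held 385 and 120 TPM, against 8.05 and 8.72 TPM in WT. The median ratio of TPM plus 1 between libraries of one group was 1.43 over the 11 genes, 1.14 over the other 139 and 1.11 over 14410 genes of at least 10 TPM on average (medians over genes). The largest such ratio had medians of 6.15, 1.74 and 1.37. For each of the 11 it fell at ZT18 in LD in elf3-1 elf3-2, whose libraries also entered the picking. The largest ratio does not set the 11 apart by itself: Os03g0431600 had 3.74, while Os01g0832600, Os03g0725200, Os03g0765400 and Os05g0477600, outside the set, had 6.33, 4.504, 3.765 and 3.762.

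These 11 genes made up 9 of the 77 genes called above 0 for the interaction in elf3-1 elf3-2 and 11 of the 65 in phyB. They also made up 11 of the 29 genes called lower at ZT18 in SD in phyB and 11 of the 42 called higher in elf3-1 elf3-2 than in phyB at ZT18 in LD. Os11g0262600 had the largest such difference, with 4.401, 9.05 and 34.2 TPM in elf3-1 elf3-2 and 1.14, 1.20 and 2.13 TPM in phyB (log2 difference 3.45, SE 0.723, adjusted p = 0.000262). Replicate 3 of elf3-1 elf3-2 was the highest of its group for each of the 11. Without it, the differences of Os12g0236225 and Os01g0952800 fell to 1.88 and 1.37, and no longer passed. The largest interactions in phyB were those of Os01g0952800 at 6.24 (SE 1.27, adjusted p = 0.000322) and Os07g0142100 at 5.52 (SE 1.19, adjusted p = 0.000653).

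**Figure D5:**
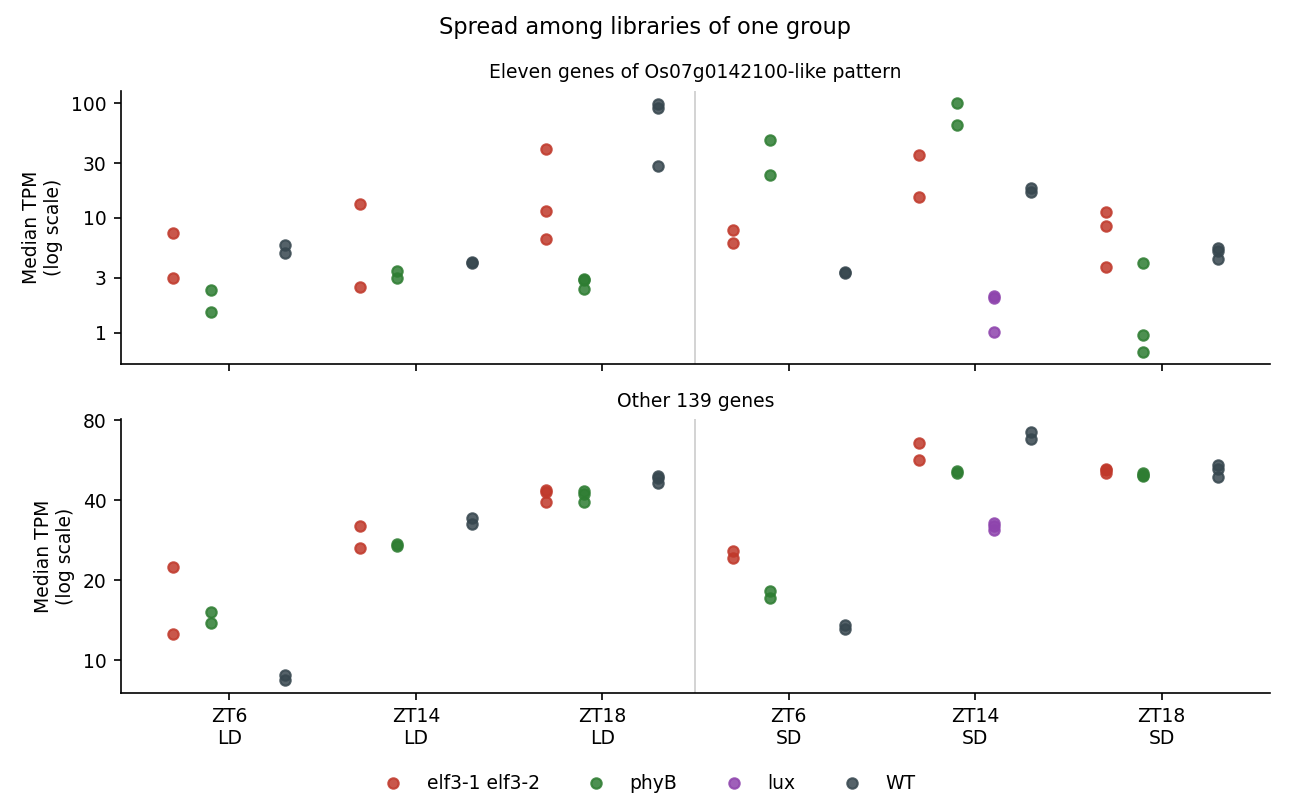
Median TPM (log scale) per library of the 11 genes with the pattern of Os07g0142100 (top) and of the other 139 genes (bottom), by time and day length; each point is a library. For the 11 genes, libraries of some groups lie far apart, as at ZT18 in LD in elf3-1 elf3-2 (6.49 to 39.8 TPM). In other groups they lie close, as in phyB at that point (2.40 to 2.92 TPM). The other 139 lie close at ZT18 in LD in elf3-1 elf3-2 (39.4 to 43.9 TPM) and further apart there at ZT6 in LD (22.4 and 12.5 TPM).

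Genes whose pattern over the 31 mutant libraries was most like that of Os04g0119000 were Os07g0469200 (r = 0.962), Os07g0143600 (0.959) and Os03g0765400 (0.950), by Pearson correlation of log2 TPM plus 1. These libraries share genotypes and times, so the values are a description. Os07g0469200 held 63.7, 58.9 and 54.2 TPM at ZT18 and 26.4 and 38.4 TPM at ZT14 in LD in elf3-1 elf3-2, with an interaction of 0.79 (SE 0.198, adjusted p = 0.0048), and 2.21 in phyB (SE 0.208, adjusted p = 8.2e-11). The 150 genes lie on all 12 chromosomes, by their identifiers, with 26 on chromosome 1 and 5 on chromosome 11. Neighbouring members were few: Os05g0594200 and Os05g0594500, Os09g0545300 and Os09g0545400, and Os12g0583900 and Os12g0584200 lie 2 rows apart in the table, and Os01g0607800 and Os01g0608101 lie 3 apart.

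Lists of clock, phytochrome-interacting, starch and chlorophyll genes, none of which is among the 150, give a setting for these values. PIL11 and PIL14, members of the phytochrome-interacting factor-like family of transcription factors, had interactions above 0. That of PIL11 was 0.79 in elf3-1 elf3-2 (SE 0.226, adjusted p = 0.0135) and 1.18 in phyB (SE 0.244, adjusted p = 0.000294). That of PIL14 was 0.72 in elf3-1 elf3-2 (SE 0.134, adjusted p = 0.00017) and 1.36 in phyB (SE 0.137, adjusted p = 4.27e-10). Its level at ZT14 in phyB was 20.8 ± 0.878 TPM in LD and 47.5 ± 0.675 TPM in SD (± standard deviation, n = 2). Of 6 genes of this family, 2 were called above 0 and 0 below in elf3-1 elf3-2, and 3 above and 2 below in phyB. PIL15 and PIL16 were those below, with -1.28 and -2.05. Of 12 clock and evening complex genes, 0 were called above 0 and 8 below in elf3-1 elf3-2, and 2 above and 5 below in phyB. Among them LHY, a morning clock gene, had -2.26 in elf3-1 elf3-2 and -3.70 in phyB, and PRR95, a pseudo-response regulator, -3.42 and -1.48. Of 5 starch breakdown genes 2 were called below 0 in elf3-1 elf3-2 and 3 in phyB. Of 5 chlorophyll breakdown genes 3 were called below 0 in elf3-1 elf3-2 and 0 in phyB. None of the calls in elf3-1 elf3-2 was made with every library under its label.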

How the data were processed

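Per the labels' protocols, RNA was extracted with an RNeasy kit and libraries were made with the NEBNext Ultra II Directional kit. Per the submitters' processing notes, HISAT2, StringTie and the IRGSP-1.0 build were used, with no versions given. The authors deposited 2 tables, raw counts per gene and TPM. In each, 1 column has no sample record and was not used. Differences were tested on the counts of 57 libraries with edgeR 4.0.16 in R 4.3.3 (TMM factors 0.789 to 1.23, filterByExpr, which left out 8944 genes, robust glmQLFit and glmQLFTest), with a mean per group and 32 residual degrees of freedom. Benjamini-Hochberg adjustment ran over the whole set of tested genes, with a threshold of 0.05. The interaction is the change of ZT18 over ZT14 in LD minus that in SD. The code was tested on simulated data. Levels are TPM. Alternatives used DESeq2 1.42.0, limma 3.58.1, other scalings and filters, all 74 libraries, a replicate block and leaving out each library.

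The 150 genes, the gene lists, the comparisons and the 17 libraries left out were chosen with earlier results of these data known. Symbols of list genes were assigned by hand to their identifiers. Named genes are the 10 first by score, the 3 largest called differences each way in 5 comparisons and the 3 genes most like the first. The set of 11 genes and the neighbours were picked after their values were seen. Replicates with the same number deviated together weakly in most pairs and not in every pair, so numbers were not taken as pairs. Whether they are pairs is not settled, and the replicate block is an alternative. Product classes and promoter sequences were not analysed here.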

Additional observations from a re-analysis of the deposited data

Results flagged for a closer look

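The interaction, the LD minus SD difference of the ZT18 over ZT14 change, differed between elf3-1 elf3-2 and phyB for 24 of the 150 genes at an adjusted p below 0.05 by edgeR. Each value below is that in elf3-1 elf3-2 minus that in phyB, on the log2 scale. It was -2.17 for Os09g0545300, -2.12 for Os03g0169700, -1.71 for Os07g0676900, -1.50 for Os03g0765400 and -1.42 for Os07g0469200. For these 5 genes the difference between LD and SD nights was the larger in phyB. It was 1.59 for Os07g0626800, whose interaction was 0.56 in elf3-1 elf3-2 (not called) and -1.03 in phyB, and 1.45 for Os04g0458300, whose interaction was 2.00 in elf3-1 elf3-2 and 0.56 in phyB (not called). With every library under its label 0 of the 150 genes were called by edgeR, with 1 at an unadjusted p below 0.05.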

How the results depend on the processing

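Results were recomputed under 14 other settings. Counts of the 150 genes called, both directions together, stayed within 1.5 times under DESeq2, limma on log2(TPM + 1) and relative log expression size factors. They also did with no filter on low counts and with dispersions estimated first (an alternative chosen after seeing the data). A pseudocount of 0.1 in the ratios to WT or in the score moved none, while limma on log2(TPM + 0.1) moved 3, given below. By direction some moved more: ZT18 against ZT14 in SD in phyB gave 13 genes higher under relative log expression, against 7, and the interaction in phyB 3 below 0 under limma on log2(TPM + 1), against 6. Keeping all 74 libraries moved most counts, and the shares of all genes called in the tests of that fit are given above. The interaction fell to 0 genes in elf3-1 elf3-2 and 21 in phyB, and differed between them for 0. ZT18 against ZT14 gave 15 genes in LD and 3 in SD in elf3-1 elf3-2, and 31 and 13 in phyB. LD against SD gave 18 at ZT18 and 33 at ZT14 in elf3-1 elf3-2, and 5 and 63 in phyB. ZT18 against ZT6 in LD gave 44 in elf3-1 elf3-2 and 58 in phyB, and ZT14 against ZT6 in SD gave 86 in elf3-1 elf3-2. The comparison of elf3-1 elf3-2 with phyB gave 3 in LD and 0 in SD at ZT6, 0 and 1 at ZT14, and 22 and 7 at ZT18. Against WT it gave 6 at ZT6 in SD in elf3-1 elf3-2, and in phyB 2 and 1 at ZT6 and 0 and 0 at ZT14 (LD and SD). The cause was not tested.

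With only the compared groups fitted, ZT18 against ZT14 in SD gave 10 genes in elf3-1 elf3-2 and 58 in phyB, ZT18 against ZT6 in LD gave 87 in elf3-1 elf3-2, and the 2 mutants compared at ZT6 in LD gave 33. With limma on log2(TPM + 0.1), LD against SD at ZT18 gave 51 in phyB, elf3-1 elf3-2 against phyB at ZT14 in SD gave 32, and their interactions differed for 13. TMM-scaled CPM gave 2 genes for elf3-1 elf3-2 against WT at ZT14 in SD. With the replicate block, interactions differed for 39 genes, and no other count moved by over 1.5 times. Whether the numbers pair the samples is not settled. Correlations between LD and SD libraries of the same number at ZT18 were 0.115, 0.0855 and 0.279 in elf3-1 elf3-2. In phyB they were -0.0542, 0.0901 and 0.0320.

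Leaving out 1 library at a time gave these ranges of called genes. For elf3-1 elf3-2 alone they were 41 to 75 for ZT18 against ZT14 in LD, 44 to 79 for the interaction and 88 to 139 for ZT18 against ZT6 in LD. For elf3-1 elf3-2 against phyB they were 44 to 89 at ZT6 in SD, 30 to 46 at ZT14 in LD, 23 to 63 at ZT14 in SD and 8 to 28 for the interaction. For elf3-1 elf3-2 against WT they were 13 to 51 at ZT6 in LD, 1 to 9 at ZT14 in LD, 4 to 11 at ZT14 in SD and 2 to 15 at ZT18 in LD.

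The interaction of Os02g0578400 in phyB, -0.0069 and not called, turned to 0.19 with all 74 libraries, 0.024 with the replicate block, 0.33 and 0.34 with limma at pseudocounts of 1 and 0.1, and ran from -0.31 to 0.29 when single libraries were left out. That of Os02g0724000 in elf3-1 elf3-2, 0.025 and not called, ran from -0.016 to 0.12 when single libraries were left out. Of the values of named genes under other settings, 759 kept their direction and side of the threshold, 59 lost the threshold, 12 gained it and 11 changed sign. Groups of 2 or 3 libraries limit the precision of each level, and genes near 1 TPM rest on few counts.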
